A study of Mus musculus with 10 samples.

Results

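Mouse embryonic stem cells kept in A2iL, a medium with a Src inhibitor, were compared with the same line in 2iL-F, a medium with a MEK inhibitor. The comparison uses 4 of the 10 RNA-seq libraries of the series, 2 per medium, taken by their condition labels. The pair was picked with earlier results of these data known, because fibroblast markers had appeared similar on both sides. Both media were serum-free N2B27 with 1000 IU mLIF, the cytokine LIF that sustains mouse stem cells, and 3 µM Chir99021, which blocks the kinase GSK3. A2iL added 1.5 µM CGP77675, which inhibits Src family kinases, and 2iL-F added 1 µM PD0325901, which inhibits the kinase MEK. The labels place A2iL on feeder cells and 2iL-F without them, so the inhibitor and the feeder label change together here and, as labelled, cannot be told apart. The fibroblast RNA described below goes against the feeder labels of 2iL and 2iL-F, which may have been exchanged. With an exchange both media compared here would be on feeders, and the 2iL values given below would come from cells without them. All cells carry the strain label C57BL6X129S6F1. The other 6 libraries, 2 each of SL (serum medium with 15% FBS and mLIF), 2iL (the medium of 2iL-F, labelled as on feeders) and LCDM (2 µM Dim and 2 µM Mih with mLIF and Chir99021), entered the fit to estimate the spread. Values from the libraries labelled 2iL are given beside many results because they share the MEK inhibitor with 2iL-F but hold almost no RNA of the fibroblast collagen genes Col1a1, Col1a2 and Col3a1.

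MEK phosphorylates and activates ERK, the last kinase of the cascade that FGF receptors start in embryonic stem cells. Active ERK turns on ETS-family and immediate early transcription factors together with its own inhibitors, the Sprouty proteins and the dual-specificity phosphatases, whose transcripts are common readouts of the cascade. Blocking MEK and GSK3 with LIF present is the classic way to hold mouse embryonic stem cells in the naive state, in which de novo DNA methylation is low. Src family kinases act at growth factor receptors and focal adhesions, and a Src inhibitor has been used in place of the MEK inhibitor in media of this kind. In cells with fibroblasts beside them, RNA of both cell types enters the library, and ERK works in both.

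The values are TPM, a unit scaled for transcript length and library total, which keeps no read number, and the sequencing depth of the libraries is therefore unknown. TPM listed in a library added up to 71.0% to 73.0% of the full scale of the unit. The 2 A2iL libraries had a Pearson correlation across genes of 0.9931 and the 2 libraries of 2iL-F one of 0.9939, and 97.8% and 97.7% of the tested lines lay within 1.5-fold between libraries of the same condition. The labels do not say whether the 2 libraries of a condition stem from separate cultures. A p-value here therefore weighs a change only against the scatter of these libraries, which may be technical. A change is a difference of log2(TPM + 1), A2iL minus 2iL-F, with its standard error from limma, and it understates the change of genes with low TPM. In the lower part of the table the symbols stand 1 or 2 lines away from their values, so genes are named only from its upper part. Library values are always given with replicate 3 before replicate 5.

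Fibroblast RNA was present on both sides, but its level was not equal and the difference varied with the markers used. The summed TPM of 68 fibroblast genes in 3 lists was 5662 ± 85.1 in A2iL and 7161 ± 188 in 2iL-F (mean ± SD, n = 2), a ratio of 0.791, against 2386 ± 58.2 in 2iL. The ratio depended on the list. Collagen and matrix genes summed to 3078 TPM in A2iL and 4869 in 2iL-F, a ratio of 0.632. Contractile genes summed to 1033 and 1069, a ratio of 0.967, and fibroblast identity genes such as growth factor receptors to 1551 and 1224, a ratio of 1.27. In 2iL the collagen sum was 1033 TPM, the contractile sum 1106 and the identity sum 247. The contractile sum was thus no lower in 2iL than in either medium, and its ratio is a weak measure of fibroblast RNA. The collagen list still held 1033 TPM in 2iL, where Col1a1, Col1a2 and Col3a1 were almost absent. Part of each sum is therefore not tied to these collagens, and the ratios of the sums can understate differences in fibroblast RNA. Of 25 tested collagen and matrix genes 18 were lower in A2iL and 4 higher, with a median change of -0.49, while of 24 identity genes 15 were higher and 5 lower, with a median of 0.36. In the contractile list 5 of 17 were higher and 3 lower. The collagen and identity levels go against the feeder labels, since 2iL-F is labelled as free of feeders and 2iL, with the lower levels, as grown on them. Whether the 2 labels were exchanged cannot be told from the values. In bulk RNA, fewer fibroblasts and less of a transcript per fibroblast cannot be told apart.

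Single markers moved in both directions. Col1a1, which encodes an α chain of collagen I (mm10, GENCODE vM21, as for all coordinates of genes here: chromosome 11, 94936224 to 94953042), had 407 and 381 TPM in A2iL and 1058 and 974 in 2iL-F, a change of -1.36 ± 0.06, adjusted p = 7.4e-07 in limma. Col3a1, a chain of type III collagen, had 128 and 121 TPM in A2iL and 361 and 356 in 2iL-F (-1.52 ± 0.07), and Lox, which crosslinks collagen, had 173 and 169.5 TPM in A2iL and 239 and 239.8 in 2iL-F (-0.48 ± 0.04). All 3 were lower in A2iL, with the libraries of the 2 media apart as in every called line, and all 3 stood below 1 TPM in both 2iL libraries. Thbs2, a matrix glycoprotein of the thrombospondin family, went the other way with 201 and 199.5 TPM in A2iL and 63.0 and 60.4 in 2iL-F (1.68 ± 0.06), as did Dcn, the proteoglycan decorin, with 109.8 and 105 TPM in A2iL and 32.9 and 34.3 in 2iL-F (1.65 ± 0.06). Among the identity genes Timp3, an inhibitor of metalloproteinases, was lower in A2iL, with 8.70 and 8.68 TPM in A2iL and 44.3 and 46.4 in 2iL-F (-2.26 ± 0.07). Pdgfra, the PDGF receptor of mesenchymal cells, was higher, with 6.45 and 5.36 TPM in A2iL and 1.59 and 1.60 in 2iL-F (1.41 ± 0.10), and so was the transcription factor Twist2 at 22.5 and 20.7 TPM in A2iL and 7.74 and 7.04 in 2iL-F (1.43 ± 0.08). Thy1, a fibroblast surface marker, had 58.9 and 61.1 TPM in A2iL and 70.9 and 68.4 in 2iL-F. Acta2, smooth muscle actin, had 23.7 and 24.8 TPM in A2iL and 36.8 and 39.3 in 2iL-F (-0.63 ± 0.07) and Tagln had 25.4 and 25.3 TPM in A2iL and 27.6 and 25.9 in 2iL-F (-0.07 ± 0.09, adjusted p = 0.54). Markers of the same cell type therefore moved in both directions, and no single ratio describes them.

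**Figure D1:**
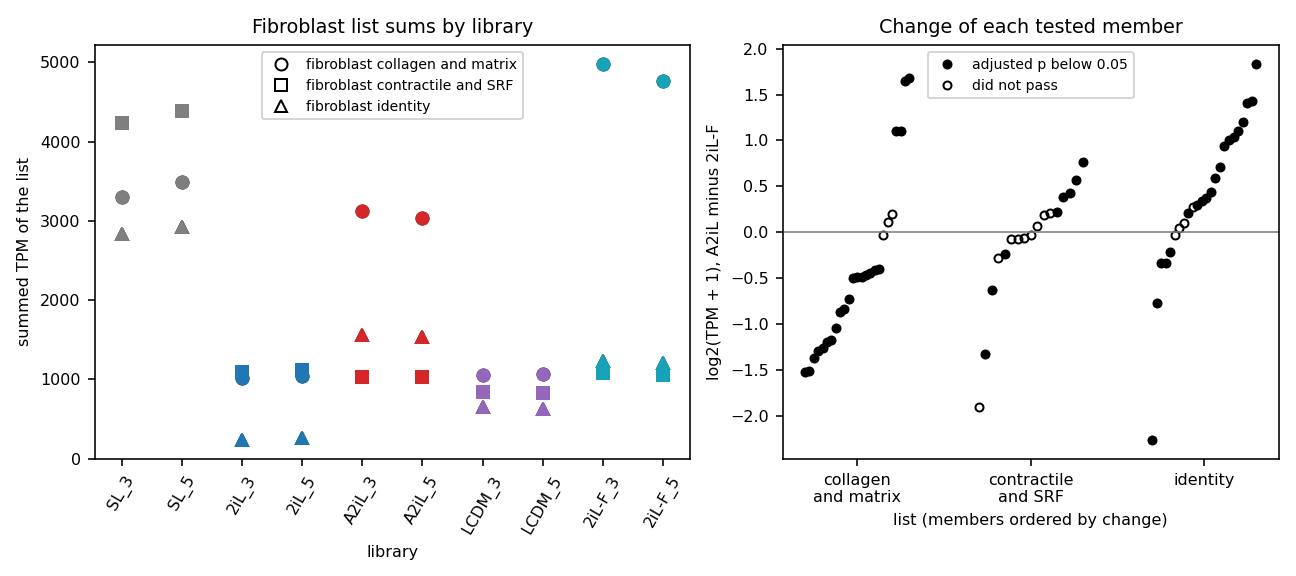
Left, summed TPM of the 3 fibroblast lists (y axis) in each of the 10 libraries (x axis), with circles for collagen and matrix, squares for contractile genes and triangles for identity genes. Right, the change of each tested member (difference of log2(TPM + 1), A2iL minus 2iL-F), filled where the adjusted p was below 0.05. The collagen sums are higher in 2iL-F than in A2iL, the identity sums lower, and most collagen members lie below 0.

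Markers of other cells were checked in the same way. The 4 stem cell markers that could be named (Pou5f1, Nanog, Esrrb and Tdgf1) summed to 1885 ± 5.45 TPM in A2iL and 2423 ± 19.12 in 2iL-F, all 4 above 1 TPM in every library. Nanog changed by far the most of these 4, as given below. The 12 leukocyte markers summed to 94.1 ± 0.903 TPM in A2iL and 118.7 ± 4.68 in 2iL-F, with the pan-leukocyte gene Ptprc at 0.0248 and 0.0449 TPM in A2iL and 0.0146 and 0.0143 in 2iL-F, Csf1r at 5.86 and 5.33 TPM in A2iL and 4.85 and 3.97 in 2iL-F and Cd68, which other cells express too, at 20.9 and 21.1 TPM in A2iL and 23.9 and 22.0 in 2iL-F. The 8 endothelial markers summed to 22.8 ± 0.00546 and 32.7 ± 0.230 TPM, with Cdh5, the cadherin of endothelium, at 0.243 and 0.0652 TPM in A2iL and 0.0213 and 0.0208 in 2iL-F and the angiopoietin receptor Tek at 2.53 and 2.93 TPM in A2iL and 7.97 and 7.88 in 2iL-F. Ptprc and Cdh5 were thus near 0 on both sides, and Csf1r, Cd68 and Tek were not.

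Of 14578 tested lines 6597 passed at a Benjamini-Hochberg adjusted p below 0.05 in limma, which is 45.3%. Of these 3242, or 22.2% of the tested lines, were higher in A2iL and 3355, or 23.0%, were lower, and the median change over all lines was 0.01. All 6597 had the 2 libraries of 1 medium apart from the 2 of the other. Changes of at least 1 on the log2 scale were fewer, with 562 lines higher (3.86%) and 624 lower (4.28%). In the part of the table where genes can be named, 3789 of 7962 passed (47.6%), 1899 higher (23.9%) and 1890 lower (23.7%). With so large a background, a count within a list has to be read against 47.6%, and against 23.9% and 23.7% for the 2 directions. The lists and their members were chosen with earlier results of these data known. A share above the background is therefore a description and no independent support.

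Lines whose levels followed the collagen list in other media made up 1356 of the 3242 increases. Over the 6 libraries of SL, 2iL and LCDM, 2931 tested lines had a correlation above 0.9 with the mean log2 level of the collagen list. Libraries of the same condition were nearly alike, so such a correlation rests on few independent levels and is easily reached. Of these 46.3% were higher in A2iL and 8.63% lower, with a median change of 0.20. Of the other 11647 lines 16.2% were higher and 26.6% lower, with a median of -0.04. With the following lines left out of the test, 37.5% of the called lines were higher in A2iL, against 49.1% of all called lines. The correlation does not single out fibroblast genes, because among those 6 libraries 2iL is both the condition with the least collagen RNA and the only condition with the MEK inhibitor. Genes that MEK inhibition lowers and genes of fibroblasts can both follow the list, and the part of either in the following lines was not tested.

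**Figure D2:**
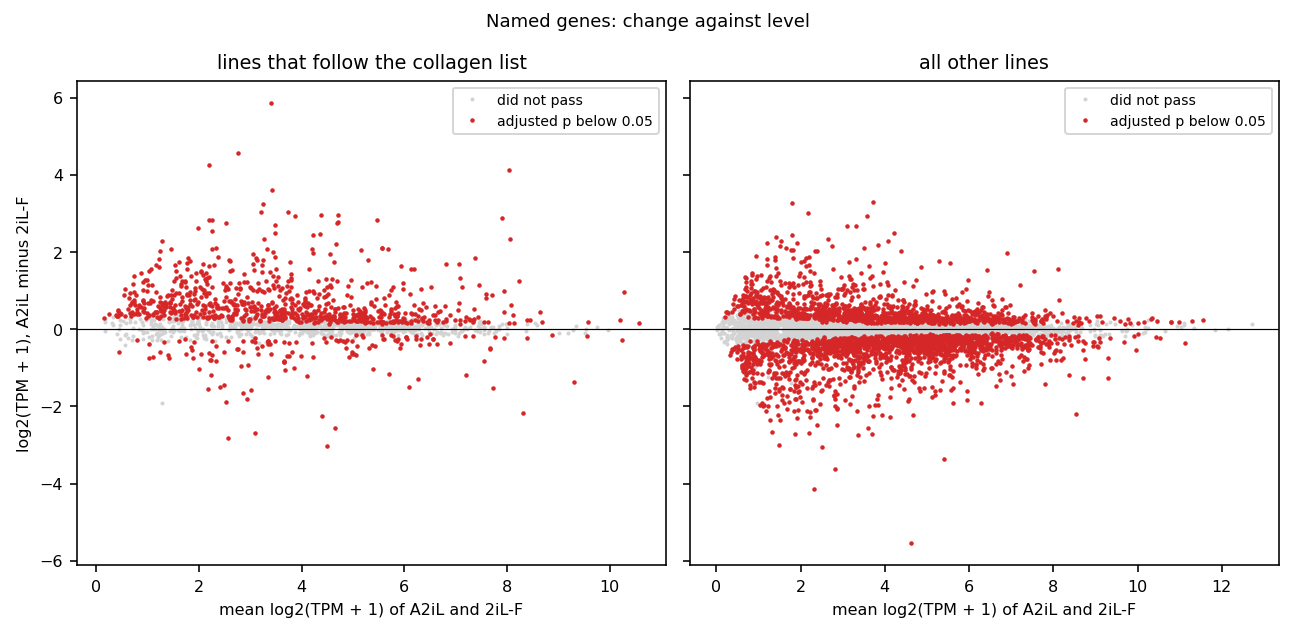
Change of each tested gene in the named part (y axis, difference of log2(TPM + 1), A2iL minus 2iL-F) against its mean level in the 2 media (x axis, log2(TPM + 1)), for lines that follow the collagen list (left) and all other lines (right). Red points had an adjusted p below 0.05. On the left most red points lie above 0, and on the right more lie below 0 than above.

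By the naming rule the 15 largest increases and the 15 largest decreases were named out of 444 named genes that changed by at least 1, reached 5 TPM in 1 medium and had libraries apart, 234 of them higher in A2iL and 210 lower. Mmp9, the gelatinase that degrades type IV collagen (chromosome 2, 164940780 to 164955850), led the increases with 81.4 and 79.4 TPM in A2iL and 0.354 and 0.419 in 2iL-F, a change of 5.88 ± 0.14, adjusted p = 2.8e-08. In 2iL it had 0.669 and 0.233 TPM and in SL 13.7 and 14.8, so its level in A2iL was above that of every other library. Spry4, a Sprouty inhibitor of receptor signalling to ERK, had 31.4 and 32.5 TPM in A2iL and 0.429 and 0.343 in 2iL-F (4.57 ± 0.08), and Trh, which encodes thyrotropin-releasing hormone, had 1100.2 and 1097 TPM in A2iL and 64.4 and 59.6 in 2iL-F (4.13 ± 0.05). Mcpt8, a mast cell protease family gene, had 17.2 and 20.7 TPM in A2iL and 0.0896 and 0 in 2iL-F (4.25 ± 0.11) and stood at 0 in both 2iL libraries. Tm4sf1, a tetraspanin-like membrane protein, had 35.5 and 36.7 TPM in A2iL and 1.57 and 2.58 in 2iL-F (3.61 ± 0.13), and Ereg, the EGF receptor ligand epiregulin, had 24.6 and 26.2 TPM in A2iL and 1.97 and 2.50 in 2iL-F (3.03 ± 0.12). Both were listed at 0 in the 2iL libraries as well. Crabp1, a retinoic acid binding protein, had 639 and 655 TPM in A2iL and 91.4 and 83.6 in 2iL-F (2.87 ± 0.07), and Bmp4, a ligand of the BMP pathway, 30.0 and 34.5 TPM in A2iL and 3.70 and 2.95 in 2iL-F (2.95 ± 0.14). Of the 15 increases 12 followed the collagen list, 9 were under 1 TPM in both 2iL libraries, and in 14 the 2iL level was closer to 2iL-F than to A2iL. Cldn6, a claudin of tight junctions, was the exception to the last count: it had 39.7 and 40.9 TPM in A2iL and 2.55 and 3.94 in 2iL-F but 38.5 and 43.0 TPM in 2iL (3.30 ± 0.13).

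Many of the largest decreases were genes abundant in both media with the MEK inhibitor, and in 9 of the 15 the 2iL level was closer to 2iL-F than to A2iL. Calcoco2, which encodes the autophagy receptor NDP52 (chromosome 11, 96099326 to 96111964), had 2.52 and 2.65 TPM in A2iL and 164 and 167 in 2iL-F, a change of -5.54 ± 0.09, adjusted p = 5.5e-09. It had 121 and 125 TPM in 2iL, but 4.54 and 4.15 in SL and 15.4 and 12.4 in LCDM, so the 4 libraries with the MEK inhibitor stood apart from the other 6. The same order held for Smtnl1, a smoothelin-like muscle protein, with 0.194 and 0.207 TPM in A2iL and 20.7 and 19.4 in 2iL-F (-4.13 ± 0.11) and 12.2 and 11.5 in 2iL. It held for Aqp3, a water and glycerol channel, with 12.3 and 12.2 TPM in A2iL and 132 and 141 in 2iL-F (-3.37 ± 0.05) and 247 and 254 in 2iL, and for Rapsn, a synaptic scaffold protein, with 1.26 and 0.710 TPM in A2iL and 15.1 and 15.3 in 2iL-F (-3.04 ± 0.12) and 9.92 and 9.37. Gsc, the homeobox factor goosecoid of the embryonic organizer, had 1.25 and 0.792 TPM in A2iL and 22.1 and 25.6 in 2iL-F (-3.62 ± 0.18) and 39.9 and 31.6 in 2iL. Cd3d and Cd3g, chains of the T cell receptor complex, were listed at 0 in both A2iL libraries and had 6.50 and 7.41 and 5.03 and 5.66 TPM in 2iL-F, and 1.16 and 1.45 and 1.05 and 1.29 in 2iL. Vwf, von Willebrand factor, had 0.495 and 0.381 TPM in A2iL and 8.66 and 8.08 in 2iL-F (-2.70 ± 0.09) and 13.7 and 15.1 in 2iL, and Spic, an ETS-family factor, 0.858 and 0.761 TPM in A2iL and 10.7 and 10.6 in 2iL-F (-2.69 ± 0.11) and 6.25 and 7.08. These 4 genes are known from blood or vessel lineages. Of the marker lists of those cells, Ptprc and Cdh5 were below 1 TPM in all 4 libraries, but Tek, Cd68 and Laptm5 were above it in each, and Cd3e had 0.278 and 0.246 TPM in A2iL and 4.91 and 4.97 in 2iL-F. The endothelial sum had a ratio of 0.698 and the leukocyte sum one of 0.793, A2iL to 2iL-F, and the part of such cells in these changes was not tested. A further 4 of the 15 followed the collagen list. Aspn, a matrix proteoglycan, had 1.11 and 1.36 TPM in A2iL and 14.1 and 15.4 in 2iL-F (-2.82 ± 0.11) with 0.0372 and 0.0350 in 2iL, and Anxa8, an annexin, had 7.86 and 6.12 TPM in A2iL and 64.9 and 61.7 in 2iL-F (-3.02 ± 0.12). Wisp2, a matricellular CCN family protein, had 2.54 and 2.14 TPM in A2iL and 20.9 and 20.3 in 2iL-F (-2.70 ± 0.14), and Ccdc80, a secreted matrix protein, 9.60 and 9.16 TPM in A2iL and 62.6 and 57.8 in 2iL-F (-2.56 ± 0.09). These 4 were higher in 2iL-F than in any other condition.

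Transcripts of the ERK feedback loop were mostly higher under the Src inhibitor. Of 22 tested ERK feedback and ETS target genes 16 were higher in A2iL, 4 lower and 2 did not pass, with a median change of 1.02. That is 90.9% called against the background of 47.6%, in a list chosen with earlier results of these data known. Of the 22, 11 were higher by at least 1. Dusp6, the phosphatase that removes phosphate from ERK in the cytoplasm (chromosome 10, 99263231 to 99267489), had 59.3 and 54.4 TPM in A2iL and 6.59 and 6.22 in 2iL-F, a change of 2.96 ± 0.06, adjusted p = 1.2e-08 in limma. In 2iL it had 2.49 and 2.63 TPM and in SL 62.3 and 62.8. Dusp4, a nuclear ERK phosphatase, had 41.4 and 42.6 TPM in A2iL and 7.47 and 6.50 in 2iL-F (2.43 ± 0.07), and Spry2 had 123 and 116 TPM in A2iL and 41.7 and 37.5 in 2iL-F (1.57 ± 0.08). Phlda1, a pleckstrin homology domain protein induced by growth factors, had 71.5 and 71.6 TPM in A2iL and 9.04 and 7.68 in 2iL-F (2.96 ± 0.11). The ETS factor Etv4 had 83.7 and 82.5 TPM in A2iL and 26.6 and 22.9 in 2iL-F (1.71 ± 0.06) and its relative Etv5 268 and 253 TPM in A2iL and 202 and 199 in 2iL-F (0.38 ± 0.05). For all 6 the A2iL libraries were higher and did not overlap with those of 2iL-F, as in all 6597 called lines. In 2iL, Etv4 had 26.9 and 27.1 TPM, Dusp4 8.67 and 8.87, Spry2 49.7 and 42.9, Phlda1 2.62 and 1.87 and Etv5 116 and 122. Of the 16 increases in the list 13 followed the collagen list, and the part of fibroblast RNA in them was not tested.

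Members also went against the majority. Dusp9, an ERK phosphatase used by embryonic stem cells, had 24.9 and 24.6 TPM in A2iL and 34.0 and 34.9 in 2iL-F (-0.46 ± 0.07), and 67.2 and 57.9 in 2iL. Ets2, an ETS factor, had 16.2 and 16.7 TPM in A2iL and 32.8 and 33.8 in 2iL-F (-0.97 ± 0.09), Dusp14 had 6.42 and 5.73 TPM in A2iL and 17.7 and 16.5 in 2iL-F (-1.35 ± 0.12) and Dusp16 5.96 and 5.99 TPM in A2iL and 8.26 and 8.41 in 2iL-F (-0.42 ± 0.10). These were the 4 lower members, and Dusp14 and Dusp16 are named here after their values were seen. Elk1, an ETS factor that ERK phosphorylates, had 14.0 and 11.9 TPM in A2iL and 15.1 and 14.0 in 2iL-F (-0.16 ± 0.13, adjusted p = 0.36). Of the 9 members that did not follow the collagen list 3 were higher in A2iL, 4 were lower and 2 did not pass. All 13 members that followed it were higher.

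RefSeq promoters of 3 phosphatase genes of this group and of Lif are shown because these genes moved together, all higher in A2iL, and the letters of binding motifs near their starts differ. Each runs from 250 bases before to 50 bases after the annotated start in GRCm38.p6, read 5′ to 3′ on the strand of the gene. Capitals mark exact matches, on either strand, to the motifs searched. The Dusp6 window (chr10:99262981-99263280, plus strand) held none, the Dusp5 window (chr19:53528895-53529194, plus strand) held a pair of adjacent CArG boxes, the element bound by SRF, starting 82 and 72 bases before the start. The Dusp1 window (chr17:26508423-26508722, minus strand) held a CRE 143 bases before it, and the Lif window (chr11:4257318-4257617, plus strand) an AP-1 motif 228 bases before it.
Dusp6: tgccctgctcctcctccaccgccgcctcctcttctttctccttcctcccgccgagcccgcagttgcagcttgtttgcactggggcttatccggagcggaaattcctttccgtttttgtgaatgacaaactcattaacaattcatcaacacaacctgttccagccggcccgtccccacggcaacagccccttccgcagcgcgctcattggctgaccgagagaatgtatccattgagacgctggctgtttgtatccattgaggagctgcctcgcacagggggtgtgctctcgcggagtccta
Dusp5: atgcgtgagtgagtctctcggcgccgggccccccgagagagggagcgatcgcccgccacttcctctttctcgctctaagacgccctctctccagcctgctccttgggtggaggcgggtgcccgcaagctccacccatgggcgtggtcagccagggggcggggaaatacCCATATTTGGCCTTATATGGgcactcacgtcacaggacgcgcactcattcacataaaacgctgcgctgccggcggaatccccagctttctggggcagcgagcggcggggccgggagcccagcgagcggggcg
Dusp1: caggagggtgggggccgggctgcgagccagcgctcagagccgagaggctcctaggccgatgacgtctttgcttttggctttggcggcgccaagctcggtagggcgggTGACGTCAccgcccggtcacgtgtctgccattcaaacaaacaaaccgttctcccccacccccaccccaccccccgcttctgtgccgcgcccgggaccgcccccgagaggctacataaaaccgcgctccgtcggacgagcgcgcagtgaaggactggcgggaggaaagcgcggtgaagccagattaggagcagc
Lif: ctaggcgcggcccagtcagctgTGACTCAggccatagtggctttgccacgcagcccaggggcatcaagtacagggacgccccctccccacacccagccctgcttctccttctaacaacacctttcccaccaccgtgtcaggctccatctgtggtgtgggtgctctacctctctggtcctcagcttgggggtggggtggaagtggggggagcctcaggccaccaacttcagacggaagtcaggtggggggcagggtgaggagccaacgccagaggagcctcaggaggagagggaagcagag

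The motifs were AP-1 (TGACTCA), the cAMP response element or CRE (TGACGTCA), an ETS motif (CCGGAAGT), a TCF motif (CTTTGAT), the amino acid response element CARE (TGATGCAA), a TEAD motif (GGAATG) and the CArG box. No motif searched contains another of them whole. Among 6245 promoters of tested named genes, 3.46% held the AP-1 letters, 3.15% the CRE, 8.69% the ETS motif, 2.37% the TCF motif, 0.59% CARE, 11.9% the TEAD motif and 1.25% a CArG box. Of 16 promoters of the ERK feedback list 1 held a CRE, 1 a CArG box, 2 the TEAD motif and 0 the ETS letters. Of 235 promoters of genes higher in A2iL by at least 1, 46 held the TEAD motif (19.6%), 14 AP-1 (5.96%), 8 the TCF motif (3.4%), 5 CARE (2.13%), 5 the CRE (2.13%), 4 a CArG box (1.70%) and 3 the ETS letters (1.28%). Of 202 lower by at least 1, 33 held the TEAD motif (16.3%), 6 AP-1 (2.97%), 5 the TCF motif (2.48%), 5 the ETS letters (2.48%), 2 the CRE (0.99%), 2 a CArG box (0.99%) and 0 CARE. A match is a run of letters and not a bound site. The phosphatase genes whose promoters are printed had the following levels. Dusp5, a nuclear ERK phosphatase, had 15.7 and 16.6 TPM in A2iL and 6.79 and 7.03 in 2iL-F (1.12 ± 0.07), and Dusp1, a stress-induced phosphatase of the MAP kinases, 469.7 and 459.5 TPM in A2iL and 201 and 189.8 in 2iL-F (1.25 ± 0.07). Both were chosen for display after their values were seen.

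Immediate early genes, which are transcribed within minutes of a growth factor signal, gave a similar count. Of 19 tested 14 were higher in A2iL, 3 lower and 2 did not pass, with a median change of 0.92 and 89.5% called. Of the 14 increases 7 followed the collagen list and 5 were under 1 TPM in both 2iL libraries. The part of fibroblast RNA in these increases was not tested. Fos, a subunit of the AP-1 factor, had 479.6 and 473 TPM in A2iL and 159 and 162 in 2iL-F, a change of 1.57 ± 0.04, adjusted p = 3.8e-08. In 2iL it had 3.32 and 3.47 TPM, far below both. Fosl1 had 28.0 and 27.0 TPM in A2iL and 3.403 and 3.43 in 2iL-F (2.69 ± 0.18) and Fosb 123 and 124 TPM in A2iL and 44.0 and 39.3 in 2iL-F (1.55 ± 0.06), and the zinc finger factor Egr3 1.73 and 1.64 TPM in A2iL and 0.0203 and 0.0396 in 2iL-F (1.38 ± 0.09). The nuclear receptor Nr4a1 had 96.4 and 96.0 TPM in A2iL and 40.5 and 38.5 in 2iL-F (1.26 ± 0.08) and 43.9 and 37.1 in 2iL, where its libraries overlapped with those of 2iL-F. Myc, the growth-promoting transcription factor, had 19.6 and 19.5 TPM in A2iL and 7.50 and 7.78 in 2iL-F (1.25 ± 0.07) and 0.194 and 0.333 in 2iL. For Fos, Fosb and Myc the 2iL-F libraries lay between 2iL and A2iL, unlike those of Nr4a1. Gadd45b, a stress gene linked to DNA demethylation, was lower with 16.0 and 18.1 TPM in A2iL and 52.8 and 48.5 in 2iL-F (-1.52 ± 0.07). Arc had 21.5 and 22.1 TPM in A2iL and 21.4 and 19.6 in 2iL-F and Nr4a3 0.531 and 0.564 TPM in A2iL and 0.508 and 0.394 in 2iL-F, with adjusted p values of 0.43 and 0.48.

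**Figure D3:**
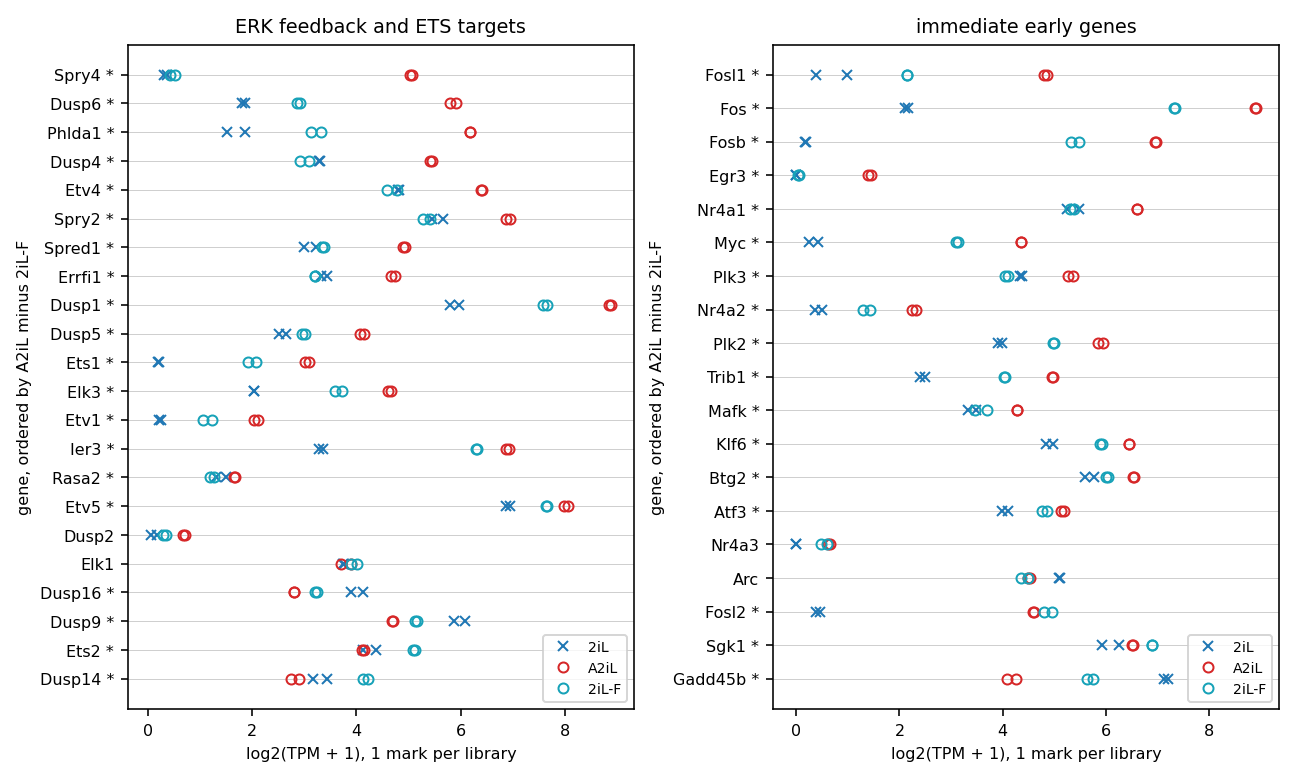
Levels as log2(TPM + 1) (x axis) of the 22 tested ERK feedback and ETS target genes (left) and the 19 immediate early genes (right), ordered by change, with 1 mark per library for A2iL (red circles), 2iL-F (blue-green circles) and 2iL (crosses). An asterisk marks an adjusted p below 0.05 between A2iL and 2iL-F. For the upper genes the red circles lie to the right of the blue-green ones, and for Fos, Fosb and Myc the crosses lie far to the left of both.

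The cascade above ERK did not lean to either side. Of 36 components from FGF receptors to MEK 11 were higher in A2iL, 8 lower and 17 did not pass, with a median change of 0.00, and 52.8% called is near the background. The kinases themselves, Map2k1 and Map2k2 (MEK1 and MEK2), had 92.4 and 91.2 TPM in A2iL and 103 and 97.7 in 2iL-F (-0.13 ± 0.05, adjusted p = 0.056) and 58.5 and 53.3 TPM in A2iL and 58.5 and 52.98 in 2iL-F (0.00 ± 0.08, adjusted p = 0.97). Ligands and receptors moved more. Fgf7, a growth factor made by mesenchymal cells, had 8.39 and 9.20 TPM in A2iL and 1.35 and 1.32 in 2iL-F (2.07 ± 0.09) and was at 0 and 0.0761 TPM in 2iL. Fgf10 had 1.93 and 1.81 TPM in A2iL and 5.24 and 5.47 in 2iL-F (-1.15 ± 0.11) and the PDGF ligand Pdgfc 5.36 and 6.37 TPM in A2iL and 25.3 and 26.5 in 2iL-F (-1.98 ± 0.12). Kit, the stem cell factor receptor, was lower in A2iL, with 18.0 and 18.2 TPM in A2iL and 62.8 and 63.8 in 2iL-F (-1.75 ± 0.10), and 2iL had 53.7 and 66.4. The scaffold Ksr1 was lower too, at 3.07 and 2.93 TPM in A2iL and 11.5 and 10.97 in 2iL-F (-1.61 ± 0.07), and Eras, the Ras protein of embryonic stem cells, was higher, with 14.1 and 12.4 TPM in A2iL and 4.15 and 4.78 in 2iL-F (1.38 ± 0.11). Fgf7 was the one of these 6 that followed the collagen list.

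Genes of the Src family were split. Of 14 tested members of the Src family and its regulators 4 were higher in A2iL, 4 lower and 6 did not pass, with a median of 0.11. Src itself had 68.2 and 67.1 TPM in A2iL and 87.9 and 78.5 in 2iL-F, a change of -0.29 ± 0.08, adjusted p = 0.013, and that call was lost when single libraries were left out (adjusted p = 0.096 without 2iL-F replicate 3, 0.052 without A2iL replicate 3, 0.066 without A2iL replicate 5). Yes1 had 25.1 and 26.7 TPM in A2iL and 28.4 and 29.5 in 2iL-F (-0.16 ± 0.10, adjusted p = 0.24) and Fyn 17.2 and 17.9 TPM in A2iL and 16.0 and 16.8 in 2iL-F (0.09 ± 0.06, adjusted p = 0.22), both kinases of the same family. Csk, the kinase that switches Src off, had 28.5 and 27.8 TPM in A2iL and 31.1 and 31.8 in 2iL-F (-0.15 ± 0.06, adjusted p = 0.062). Lck, a family member known from T cells, was higher in A2iL, with 24.5 and 25.6 TPM in A2iL and 14.2 and 14.5 in 2iL-F (0.76 ± 0.05). The adaptor Pag1, which recruits Csk to the membrane, had 0.593 and 0.553 TPM in A2iL and 1.31 and 1.07 in 2iL-F (-0.47 ± 0.10).

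Focal adhesion genes and Src substrates, 35 tested, were split, with 10 higher in A2iL, 9 lower and a median of -0.02. The share called, 54.3%, was near the background. Caveolar genes were the group's largest increases. Cavin1 had 90.1 and 88.3 TPM in A2iL and 42.6 and 42.9 in 2iL-F (1.04 ± 0.04), Cav1 38.7 and 39.7 TPM in A2iL and 20.2 and 21.0 in 2iL-F (0.89 ± 0.09) and Cav2 6.61 and 6.71 TPM in A2iL and 3.30 and 3.27 in 2iL-F (0.84 ± 0.08), and all 3 followed the collagen list. Cav1 and Cav2 were listed at 0 in both 2iL libraries. Itga7, the laminin-binding integrin subunit of muscle, was lower in A2iL, with 0.505 and 0.643 TPM in A2iL and 5.15 and 4.72 in 2iL-F (-1.91 ± 0.11), and so was Bcar3, an adaptor of the Src substrate p130Cas, at 11.2 and 11.6 TPM in A2iL and 18.6 and 18.8 in 2iL-F (-0.67 ± 0.05). The integrin subunit Itgb1 had 168 and 166 TPM in A2iL and 163 and 173 in 2iL-F (-0.01 ± 0.09, adjusted p = 0.96). Of 24 targets of the YAP and TEAD factors 8 were higher and 4 lower, with a median of 0.06. Cyr61, a matricellular target, had 354 and 342 TPM in A2iL and 181 and 165 in 2iL-F (1.00 ± 0.07), while Ctgf, its close relative, had 61.8 and 61.4 TPM in A2iL and 61.4 and 58.2 in 2iL-F (0.04 ± 0.10, adjusted p = 0.76). Tead2 had 65.9 and 64.9 TPM in A2iL and 98.1 and 98.0 in 2iL-F (-0.58 ± 0.05) and Amotl2, an inhibitor of YAP, 54.5 and 52.6 TPM in A2iL and 80.6 and 78.5 in 2iL-F (-0.56 ± 0.06).

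Naive pluripotency genes were mostly lower in A2iL. Of 15 tested 9 were lower, 4 higher and 2 did not pass, with a median of -0.31. Nanog, a core factor of the naive state (chromosome 6, 122707489 to 122714633), had 269.6 and 264 TPM in A2iL and 652 and 643 in 2iL-F, a change of -1.28 ± 0.08, adjusted p = 3.6e-06, and 606 and 729 TPM in 2iL. Tfcp2l1, a LIF-dependent factor of the naive network, had 124 and 122 TPM in A2iL and 202 and 203 in 2iL-F (-0.71 ± 0.07) and Tbx3 62.8 and 62.0 TPM in A2iL and 108 and 102 in 2iL-F (-0.75 ± 0.06). The 2 conditions did not overlap in any of these 3, as in all 6597 called lines. Fbxo15, an F-box gene marking undifferentiated cells, had 48.9 and 47.6 TPM in A2iL and 107 and 111 in 2iL-F (-1.16 ± 0.07), and Pecam1, a surface protein of naive cells, 24.5 and 24.2 TPM in A2iL and 44.3 and 43.5 in 2iL-F (-0.83 ± 0.05). In the other direction, Gbx2, a homeobox factor downstream of LIF, had 61.9 and 60.3 TPM in A2iL and 28.1 and 23.4 in 2iL-F (1.22 ± 0.08), and Manba, a lysosomal mannosidase gene, 24.1 and 24.1 TPM in A2iL and 10.2 and 10.6 in 2iL-F (1.14 ± 0.11). Esrrb, an orphan nuclear receptor, had 235 and 227 TPM in A2iL and 259 and 256 in 2iL-F (-0.16 ± 0.05, adjusted p = 0.036), a small difference whose adjusted p was between 0.073 and 0.18 with each of the 4 libraries left out in turn. Klf4 had 563 and 553 TPM in A2iL and 536 and 497 in 2iL-F (0.11 ± 0.05, adjusted p = 0.081), against 157 and 153 in 2iL, so the 2 media compared here resembled each other more than either resembled 2iL.

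Core pluripotency genes differed less. Of 8 tested 4 were lower in A2iL, 0 higher and 4 did not pass, with a median of -0.14. Nanog was the only one of the 8 lower by at least 1. Pou5f1, which encodes Oct4, had 1064 and 1094 TPM in A2iL and 1173 and 1146 in 2iL-F (-0.10 ± 0.04, adjusted p = 0.082). The other passing members were Tdgf1, a Nodal co-receptor, with 313 and 304 TPM in A2iL and 353 and 364 in 2iL-F (-0.22 ± 0.07), Rif1, a regulator of replication timing, with 43.7 and 45.2 TPM in A2iL and 52.6 and 56.4 in 2iL-F (-0.29 ± 0.09), and Trim28, the corepressor KAP1, with 713 and 699 TPM in A2iL and 816 and 770.2 in 2iL-F (-0.17 ± 0.04). None of these 3 calls held throughout. The adjusted p of Tdgf1 was between 0.071 and 0.12 with each of the 4 libraries left out in turn, and that of Rif1 between 0.063 and 0.16 with each of the 4 libraries left out in turn. That of Trim28 was 0.093 without 2iL-F replicate 3, 0.074 without A2iL replicate 5.

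Primed and formative genes, the next stage after the naive state, leaned upwards in A2iL, with 9 of 15 tested higher, 3 lower and a median of 0.34. Lef1, a transcriptional partner of β-catenin, had 11.4 and 10.9 TPM in A2iL and 0.753 and 0.656 in 2iL-F (2.83 ± 0.08) and followed the collagen list. Krt18, a keratin, had 9.64 and 9.79 TPM in A2iL and 4.66 and 3.71 in 2iL-F (1.05 ± 0.10) but 21.5 and 18.2 in 2iL. Gsc went down, as given above. The list also holds the de novo methyltransferases, and 3 of its 9 increases were Dnmt3a, Dnmt3b and Dnmt3l. Wnt3 and Fgf15 had under 0.5 TPM in all 4 libraries and did not pass.

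Among DNA methylation genes the de novo methyltransferases were higher in A2iL and Uhrf1 was lower. Of 21 tested 6 were higher in A2iL, 6 lower and 9 did not pass, with a median of 0.09. The 3 largest increases were the de novo group. Of the 6 increases 5 followed the collagen list, Dnmt3a, Dnmt3b and Dnmt3l among them, and the part of fibroblast RNA in them was not tested. Dnmt3b (chromosome 2, 153649450 to 153687730) had 99.1 and 94.6 TPM in A2iL and 21.0 and 22.4 in 2iL-F, a change of 2.11 ± 0.07, adjusted p = 1.6e-07. Dnmt3a had 10.7 and 11.3 TPM in A2iL and 3.45 and 3.52 in 2iL-F (1.42 ± 0.06), and Dnmt3l, their catalytically inactive partner, 39.7 and 39.4 TPM in A2iL and 4.49 and 4.12 in 2iL-F (2.93 ± 0.07). In 2iL these genes had 7.73 and 8.82, 3.08 and 3.16 and 3.20 and 3.67 TPM. The levels of Dnmt3a and Dnmt3l in 2iL-F were thus near those of 2iL, while A2iL stood between the MEK-inhibited media and SL, which had 41.9 and 42.7 and 104 and 105. Uhrf1, which recruits the maintenance enzyme to replicating DNA, was lower in A2iL, with 221 and 220.2 TPM in A2iL and 388 and 382 in 2iL-F (-0.80 ± 0.04). Dnmt1, the maintenance enzyme, had 106 and 102 TPM in A2iL and 120.1 and 118 in 2iL-F (-0.20 ± 0.05, adjusted p = 0.01), and its adjusted p was 0.059 without 2iL-F replicate 3, 0.073 without A2iL replicate 5. Idh2, the mitochondrial enzyme that makes α-ketoglutarate, was lower, with 80.0 and 84.3 TPM in A2iL and 195 and 191 in 2iL-F (-1.22 ± 0.07). Zfp57, a protector of imprints, had 124 and 122 TPM in A2iL and 117 and 112 in 2iL-F and Mbd3, a methyl-CpG-binding domain protein, 215 and 216 TPM in A2iL and 229 and 218 in 2iL-F, with adjusted p values of 0.099 and 0.63.

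**Figure D4:**
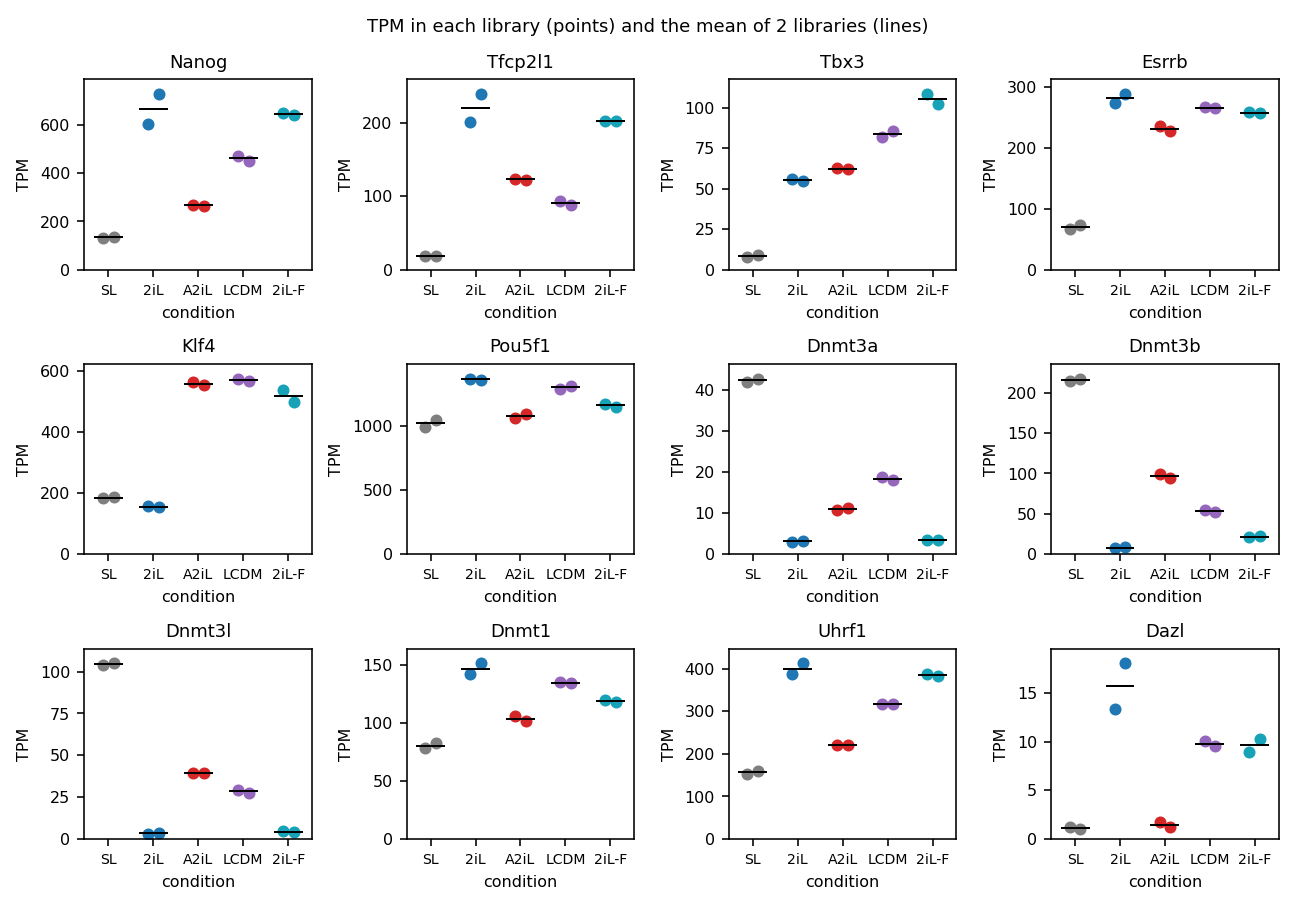
TPM (y axis, from 0) of 12 pluripotency, methylation and germline genes in each library (points) and the mean of the 2 libraries (lines) for the 5 conditions (x axis). Nanog, Tfcp2l1, Tbx3, Uhrf1 and Dazl are lower in A2iL than in 2iL-F, Dnmt3a, Dnmt3b and Dnmt3l are higher, and Klf4 and Pou5f1 did not pass.

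Germline genes that promoter methylation keeps silent in somatic cells were mixed: of 18 tested 6 were higher in A2iL, 4 lower and 8 did not pass. Dazl, a germ cell RNA-binding protein, was lower, with 1.74 and 1.21 TPM in A2iL and 8.96 and 10.2 in 2iL-F (-2.10 ± 0.15), as were Hormad1, a meiotic chromosome protein, at 0.854 and 1.64 TPM in A2iL and 11.99 and 10.7 in 2iL-F (-2.48 ± 0.16), and the factor Sohlh2 at 3.32 and 3.90 TPM in A2iL and 15.5 and 17.7 in 2iL-F (-1.93 ± 0.11). Those 3 were at 13.3 and 18.0, 10.9 and 13.5 and 14.4 and 17.4 TPM in 2iL, on the side of 2iL-F. Ddx4, the germ cell helicase Vasa, was higher in A2iL, with 7.35 and 6.94 TPM in A2iL and 2.40 and 2.96 in 2iL-F (1.15 ± 0.10), and Piwil2, a piRNA-binding protein, at 4.17 and 3.58 TPM in A2iL and 1.17 and 1.35 in 2iL-F (1.11 ± 0.13). Of 19 retroelement silencing factors only 3 were higher and 4 lower (36.8% called, under the background), all by less than 1. The histone methyltransferase gene Ehmt2 had 59.98 and 55.8 TPM in A2iL and 73.0 and 71.3 in 2iL-F (-0.31 ± 0.05) and Setdb1 31.4 and 30.7 TPM in A2iL and 25.2 and 24.7 in 2iL-F (0.31 ± 0.05). Both genes of the 2-cell-like list in the named part, Arg2 and Eif1ad, were higher, by 0.67 ± 0.15 and 0.21 ± 0.06. The call of Eif1ad was lost in part (adjusted p = 0.12 without 2iL-F replicate 3, 0.11 without A2iL replicate 3).

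Imprinted genes, expressed from 1 parental copy, had 8 of 13 tested higher in A2iL, 3 lower and a median of 0.38. H19, a non-coding RNA abundant in embryonic mesenchyme, was lower, with 148 and 150.0 TPM in A2iL and 672 and 666 in 2iL-F (-2.16 ± 0.05, adjusted p = 2.8e-08). It had 0.143 and 0.1005 TPM in 2iL and followed the collagen list. Plagl1, a zinc finger factor, was lower, with 4.402 and 3.55 TPM in A2iL and 28.5 and 28.4 in 2iL-F (-2.57 ± 0.13) and had 17.6 and 22.7 in 2iL. Phlda2, a regulator of placental growth, was higher, with 48.1 and 51.0 TPM in A2iL and 15.1 and 16.0 in 2iL-F (1.61 ± 0.07), as were its chromosomal neighbours Slc22a18 at 16.3 and 13.7 TPM in A2iL and 7.52 and 6.06 in 2iL-F (1.04 ± 0.17) and Ascl2 at 3.99 and 4.11 TPM in A2iL and 1.05 and 1.35 in 2iL-F (1.20 ± 0.14). The growth factor adaptor Grb10 had 39.9 and 41.2 TPM in A2iL and 22.7 and 21.7 in 2iL-F (0.84 ± 0.10).

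Genes of 3 further signalling pathways were examined next. Of 29 Wnt and β-catenin components and targets 10 were higher in A2iL and 9 lower, with a median of -0.07, and 9 of the 10 increases were under 1 TPM in both 2iL libraries. Among ligands and their processing, Wnt5a had 15.5 and 15.2 TPM in A2iL and 3.61 and 3.85 in 2iL-F (1.79 ± 0.07), Wnt5b 7.32 and 7.05 TPM in A2iL and 2.02 and 1.22 in 2iL-F (1.66 ± 0.18) and Porcn, the acyltransferase that Wnt secretion needs, 12.2 and 14.4 TPM in A2iL and 2.44 and 1.95 in 2iL-F (2.16 ± 0.10). The secreted inhibitors went in opposite directions. Frzb had 4.04 and 3.89 TPM in A2iL and 0 and 0.108 in 2iL-F (2.24 ± 0.10), whereas Sfrp1 had 40.6 and 38.1 TPM in A2iL and 154 and 147 in 2iL-F (-1.91 ± 0.06). Ctnnb1, β-catenin itself, had 237 and 232 TPM in A2iL and 249.5 and 253 in 2iL-F (-0.10 ± 0.06, adjusted p = 0.2). In the LIF and STAT3 list 9 of 24 were higher and 4 lower (54.2% called, near the background), with a median of 0.06. Lif (chromosome 11, 4257557 to 4272514), the cytokine itself, had 41.5 and 44.5 TPM in A2iL and 5.999 and 7.57 in 2iL-F, a change of 2.50 ± 0.09, adjusted p = 2.9e-07, while 2iL had 5.90 and 6.21 TPM. Pim1, a kinase gene induced by STAT3, was lower, with 139.8 and 133 TPM in A2iL and 389 and 339.7 in 2iL-F (-1.41 ± 0.06), and Socs2, a feedback inhibitor, was higher, with 16.2 and 15.3 TPM in A2iL and 9.86 and 9.92 in 2iL-F (0.62 ± 0.07).

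In the BMP, Nodal and SMAD list 5 of 26 were higher and 9 lower (53.8% called, near the background), with a median of -0.05. The ligand Bmp2 had 10.8 and 10.5 TPM in A2iL and 0.955 and 1.01 in 2iL-F (2.55 ± 0.14), and Bmp4 was also higher, as given above. Id3, a direct BMP target, had 90.4 and 97.2 TPM in A2iL and 39.2 and 41.6 in 2iL-F (1.19 ± 0.07) and 0.0489 and 0 in 2iL, whereas its relative Id4 was lower, with 11.7 and 10.99 TPM in A2iL and 45.3 and 42.6 in 2iL-F (-1.86 ± 0.09). The ligand Tgfb1 had 16.0 and 14.8 TPM in A2iL and 6.61 and 7.19 in 2iL-F (1.05 ± 0.07). Smad4, the common mediator, had 41.0 and 41.4 TPM in A2iL and 36.9 and 35.0 in 2iL-F (0.19 ± 0.09, adjusted p = 0.1). In each of these 3 lists ligands or inhibitors moved by more than 1. The shared mediators Ctnnb1 of the Wnt list and Smad4 of the BMP list did not pass.

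Acute-phase and chemokine genes had the highest median change of the 39 lists, at 1.22. Of 36 tested 29 were higher in A2iL, 5 lower and 2 did not pass, which is 94.4% called, and 22 were higher by at least 1. Ccl2, the chemokine that attracts monocytes, had 581 and 616 TPM in A2iL and 119 and 118 in 2iL-F, a change of 2.33 ± 0.05, adjusted p = 1.1e-08. Ptgs2, the inducible cyclooxygenase, had 118 and 116 TPM in A2iL and 14.5 and 16.4 in 2iL-F (2.84 ± 0.07). Complement C3 had 28.3 and 27.6 TPM in A2iL and 2.26 and 1.88 in 2iL-F (3.24 ± 0.11), the metalloreductase Steap4 37.9 and 37.1 TPM in A2iL and 3.74 and 3.57 in 2iL-F (3.05 ± 0.08) and the iron-siderophore binding protein Lcn2 11.8 and 11.8 TPM in A2iL and 0.511 and 0.666 in 2iL-F (3.01 ± 0.10). Ccl11, the eosinophil chemokine, had 6.40 and 7.93 TPM in A2iL and 0.413 and 0.565 in 2iL-F (2.45 ± 0.19). Of the 29 increases 24 had under 1 TPM in both 2iL libraries and 16 followed the collagen list, and Ccl2, Steap4 and Ccl11 were listed at 0 in both. Fibroblasts can express many of these genes, and beside them the collagen sum was lower in A2iL and the identity sum higher, whose part in this result was not tested. In SL, Ccl2 had 265 and 262 TPM, Ptgs2 111 and 115 and Ccl11 0.231 and 0.889, while C3 had 0.461 and 0.299, Steap4 0.553 and 0.701 and Lcn2 0.143 and 0.183. Mt2, a metallothionein, had 2572 and 2696 TPM in A2iL and 2502 and 2673 in 2iL-F (0.03 ± 0.05, adjusted p = 0.72).

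Interferon response genes did not share that pattern. Of 27 tested 6 were higher, 7 lower and 14 did not pass, with a median of 0.00, near the background at 48.1% called. Ifitm1 had 137 and 117 TPM in A2iL and 221 and 212 in 2iL-F (-0.77 ± 0.08) and Ifi35 11.2 and 11.1 TPM in A2iL and 21.1 and 21.0 in 2iL-F (-0.86 ± 0.10), both lower in A2iL. Isg15, a ubiquitin-like protein and standard marker of the response, had 31.9 and 32.7 TPM in A2iL and 33.9 and 30.8 in 2iL-F (-0.00 ± 0.10, adjusted p = 0.99), and Ifitm3 1196 and 1157 TPM in A2iL and 1136 and 1111 in 2iL-F (0.07 ± 0.07, adjusted p = 0.49).

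**Figure D5:**
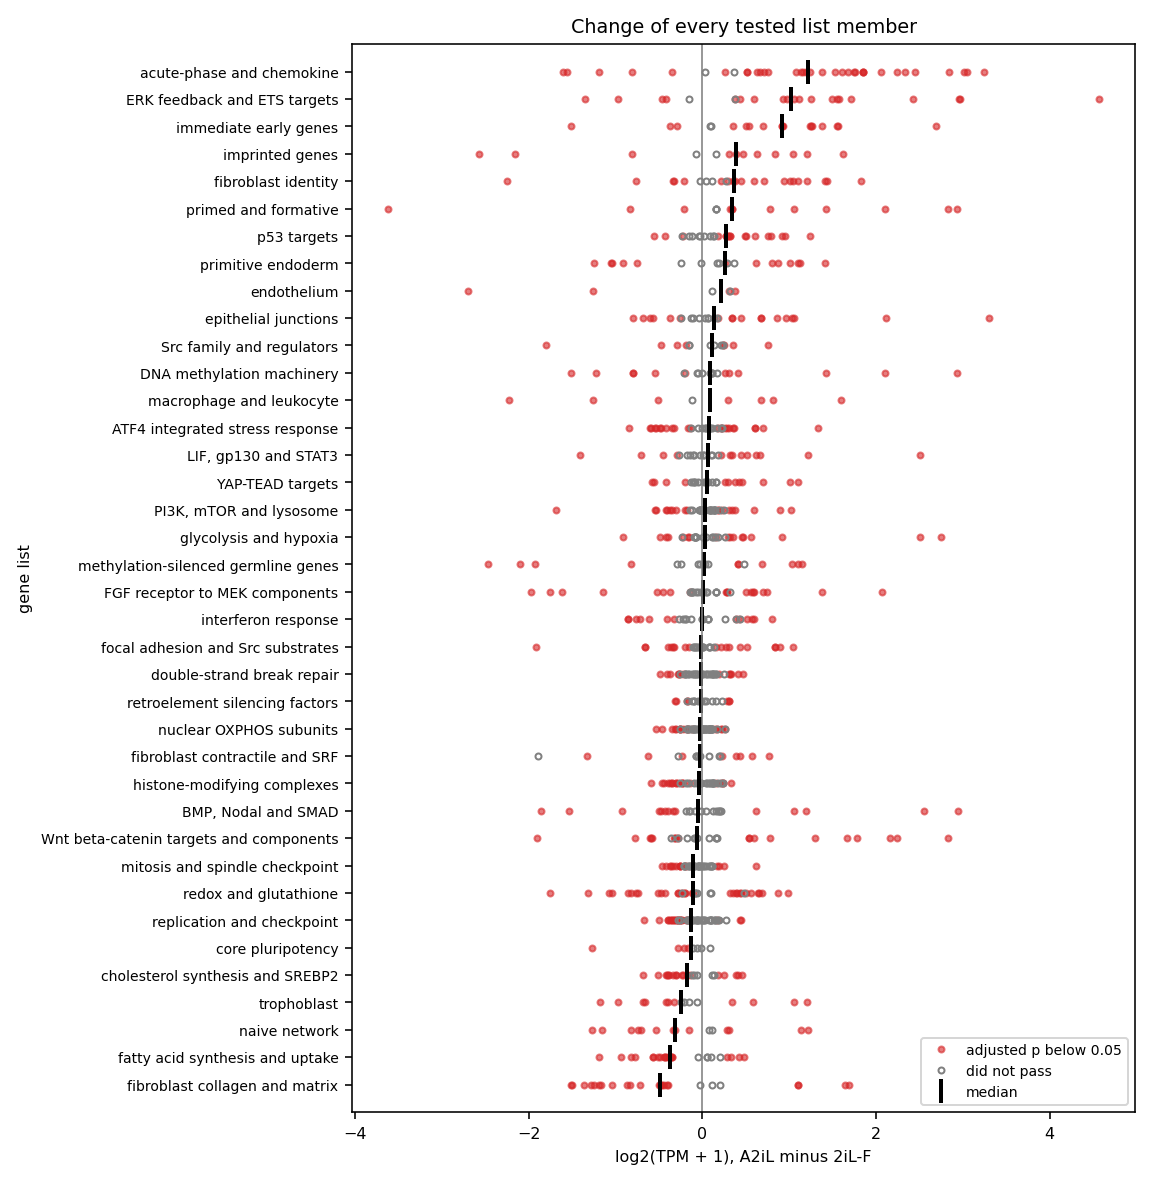
Change of every tested member of the gene lists with over 2 tested members, which leaves out the 2-cell-like list (x axis, difference of log2(TPM + 1), A2iL minus 2iL-F; y axis, list), ordered by the list median, which is drawn as a black tick. Red points had an adjusted p below 0.05 and open points did not. The acute-phase, ERK feedback and immediate early lists lie at the top and the collagen list at the bottom.

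Lineage genes were examined in 3 lists. Of 27 epithelial junction genes 12 were higher in A2iL and 6 lower, with a median of 0.13. Cldn7, a claudin, had 23.0 and 22.0 TPM in A2iL and 4.404 and 4.44 in 2iL-F (2.12 ± 0.05) and 65.8 and 68.0 in 2iL. Like Cldn6, it was lower in 2iL-F than in 2iL, although those 2 conditions have the same medium. Tjp3, a tight junction scaffold, did the same, with 23.6 and 23.2 TPM in A2iL and 12.4 and 12.5 in 2iL-F (0.86 ± 0.06) and 68.0 and 62.9 in 2iL, and Grhl2, a regulator of epithelial genes, had 1.53 and 1.94 TPM in A2iL and 0.332 and 0.466 in 2iL-F (0.96 ± 0.11). Of 15 trophoblast genes 4 were higher and 7 lower, with a median of -0.25. The factor Tfap2a had 1.04 and 1.30 TPM in A2iL and 3.90 and 3.90 in 2iL-F (-1.18 ± 0.12) and Gata2 1.14 and 0.728 TPM in A2iL and 2.33 and 1.88 in 2iL-F (-0.69 ± 0.12), against 27.1 and 29.3 in 2iL. Of 19 primitive endoderm genes 8 were higher and 5 lower, with a median of 0.26, and 7 of the 8 increases followed the collagen list. Its largest changes were matrix and receptor genes that fibroblasts also express. Sparc had 404 and 404 TPM in A2iL and 985 and 948 in 2iL-F (-1.26 ± 0.04), Col4a1 66.5 and 59.96 TPM in A2iL and 29.6 and 27.4 in 2iL-F (1.12 ± 0.07) and Lamb1 82.4 and 77.1 TPM in A2iL and 36.9 and 36.0 in 2iL-F (1.11 ± 0.07). The endoderm factors Gata4 and Gata6 had 4.13 and 2.83 TPM in A2iL and 2.40 and 2.51 in 2iL-F and 3.02 and 3.23 TPM in A2iL and 2.85 and 2.49 in 2iL-F, with adjusted p values of 0.066 and 0.13.

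Fatty acid and cholesterol genes were mostly lower in A2iL. Of 26 fatty acid genes 17 were lower, 4 higher and 5 did not pass, with a median of -0.38 (80.8% called). Fabp3, a fatty acid carrier, had 216 and 217 TPM in A2iL and 503 and 494 in 2iL-F, a change of -1.20 ± 0.04, adjusted p = 2.9e-07, and 1107 and 1077 TPM in 2iL. Acly, which makes cytosolic acetyl-CoA, had 221 and 212 TPM in A2iL and 328 and 318 in 2iL-F (-0.57 ± 0.04), the desaturase Fads2 123 and 125 TPM in A2iL and 216 and 212 in 2iL-F (-0.78 ± 0.08), and Cpt1a, which moves fatty acids into mitochondria, 51.9 and 50.6 TPM in A2iL and 76.1 and 77.05 in 2iL-F (-0.57 ± 0.06). Of 23 cholesterol genes 13 were lower and 5 higher, with a median of -0.18. Fdft1, squalene synthase, had 56.7 and 55.9 TPM in A2iL and 91.1 and 90.6 in 2iL-F (-0.68 ± 0.07) and Cyp51, a sterol demethylase, 54.7 and 53.3 TPM in A2iL and 76.4 and 78.8 in 2iL-F (-0.52 ± 0.08). Only 2 of the 26 fatty acid genes and 2 of the 23 cholesterol genes followed the collagen list. Genes that fall as collagen RNA rises do not count as following, so this count says nothing of the share of stem cells. The part of that share in these decreases was not tested.

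Energy genes were split. Of 32 glycolysis and hypoxia genes 10 were higher and 7 lower (53.1% called, near the background), with a median of 0.02. Pdk1, the kinase that holds pyruvate out of mitochondria, had 66.7 and 65.1 TPM in A2iL and 8.87 and 9.10 in 2iL-F, a change of 2.74 ± 0.05, adjusted p = 9.8e-09, and 7.58 and 8.02 TPM in 2iL. The peptide hormone gene Adm had 25.4 and 25.6 TPM in A2iL and 3.31 and 4.05 in 2iL-F (2.51 ± 0.09), while the hexokinase gene Hk2 was lower, with 109 and 108 TPM in A2iL and 156 and 150.1 in 2iL-F (-0.49 ± 0.04). Abundant enzymes such as Aldoa, at 1132 and 1107 TPM in A2iL and 1201 and 1159 in 2iL-F (-0.08 ± 0.04, adjusted p = 0.19), did not pass. Of 57 nuclear subunits of oxidative phosphorylation 13 were lower and 5 higher, 31.6% called against the background of 47.6%, with a median of -0.02. Atp5g1, an ATP synthase subunit, had 56.5 and 57.9 TPM in A2iL and 82.1 and 84.1 in 2iL-F (-0.53 ± 0.06) and Cox5a, a cytochrome oxidase subunit, 110.1 and 106 TPM in A2iL and 151 and 148 in 2iL-F (-0.47 ± 0.07). Redox and aldehyde genes changed often, with 19 of 39 lower and 13 higher. Gss, glutathione synthetase, had 15.2 and 14.3 TPM in A2iL and 37.9 and 38.9 in 2iL-F (-1.32 ± 0.07), and the aldehyde dehydrogenase Aldh1l1 13.5 and 11.9 TPM in A2iL and 27.3 and 28.6 in 2iL-F (-1.08 ± 0.09). Mgst1, a glutathione transferase, was higher, with 25.3 and 24.9 TPM in A2iL and 12.7 and 11.6 in 2iL-F (0.99 ± 0.11), and 9 of the 13 increases followed the collagen list.

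Genes of the p53 and ATF4 stress pathways differed in balance. Of 27 p53 targets 15 were higher in A2iL, 3 lower and 9 did not pass, with a median of 0.27, and 3 of the 15 followed the collagen list. Mdm2, the ligase that degrades p53, had 118 and 122 TPM in A2iL and 68.3 and 73.6 in 2iL-F (0.75 ± 0.09), and the pro-apoptotic gene Pmaip1 (Noxa) had 47.7 and 47.5 TPM in A2iL and 23.8 and 24.3 in 2iL-F (0.96 ± 0.07). Plk3 and Plk2, kinases that are also in the immediate early list, had 40.0 and 37.6 TPM in A2iL and 16.2 and 15.6 in 2iL-F (1.24 ± 0.05) and 56.9 and 60.5 TPM in A2iL and 30.3 and 30.7 in 2iL-F (0.92 ± 0.05). Cdkn1a, the cell cycle inhibitor p21, had 518 and 529 TPM in A2iL and 582 and 583 in 2iL-F (-0.15 ± 0.07, adjusted p = 0.097), and Bax 461 and 461 TPM in A2iL and 486 and 458 in 2iL-F (-0.03 ± 0.05, adjusted p = 0.59), so neither of these well-known targets passed. Of 36 ATF4 targets 12 were higher and 12 lower, with a median of 0.08. The cystine transporter Slc7a11 was higher, with 5.93 and 6.11 TPM in A2iL and 1.76 and 1.84 in 2iL-F (1.33 ± 0.11) and the transaminase Gpt2 lower, with 34.0 and 31.4 TPM in A2iL and 59.9 and 59.5 in 2iL-F (-0.85 ± 0.07).

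Replication genes were slightly lower. Of 55 replication and checkpoint genes 20 were lower, 3 higher and 32 did not pass, with a median of -0.13 and 0 changes of 1 or more. That is 41.8% called, under the background of 47.6%. Cdc45, a part of the replicative helicase, had 39.0 and 40.8 TPM in A2iL and 64.1 and 64.1 in 2iL-F (-0.67 ± 0.06), and Cdc6, a licensing factor, 18.0 and 19.3 TPM in A2iL and 26.6 and 27.2 in 2iL-F (-0.51 ± 0.05). Of 41 mitosis genes 12 were lower and 4 higher (39.0% called, also under the background), with a median of -0.10. The kinesin gene Kif20a had 91.2 and 92.2 TPM in A2iL and 124 and 131 in 2iL-F (-0.47 ± 0.05) and cyclin B2, Ccnb2, 124 and 133 TPM in A2iL and 169 and 165 in 2iL-F (-0.38 ± 0.04), whereas Top2a had 126 and 125 TPM in A2iL and 121 and 127 in 2iL-F (0.02 ± 0.09, adjusted p = 0.88). Of 39 genes of double-strand break repair 6 were higher, 7 lower and 26 did not pass, 33.3% called against the background of 47.6%. Parp1, a sensor of DNA breaks, was higher, with 283 and 279 TPM in A2iL and 209.8 and 212 in 2iL-F (0.41 ± 0.04), and Rad50 at 23.1 and 24.8 TPM in A2iL and 16.9 and 17.2 in 2iL-F (0.46 ± 0.08). Brca1 had 22.5 and 21.1 TPM in A2iL and 27.6 and 29.3 in 2iL-F (-0.37 ± 0.11), and its adjusted p was between 0.052 and 0.11 with each of the 4 libraries left out in turn. All these differences were under 1 on the log2 scale. Beside them, the stem cell marker sum in A2iL was 0.778 of that in 2iL-F. That sum includes Nanog, which was lower by more than 1, while Pou5f1, Esrrb and Tdgf1 differed far less. The ratio is therefore no measure of the share of stem cells, and the part of that share in these small changes was not tested.

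Chromatin and growth control genes completed the lists. Of 41 histone-modifying genes 14 were lower, 5 higher and 22 did not pass, with a median of -0.04. That is 46.3% called, near the background of 47.6%. Suz12, a core subunit of Polycomb complex PRC2, had 82.7 and 84.1 TPM in A2iL and 113 and 118 in 2iL-F (-0.46 ± 0.07) and its cofactor Aebp2 16.3 and 16.9 TPM in A2iL and 25.5 and 25.4 in 2iL-F (-0.59 ± 0.05). Of 43 genes of PI3K, mTOR and the lysosome 9 were higher and 10 lower (44.2% called, under the background). Mitf, a lysosomal and pigment cell factor, was lower, with 3.06 and 3.04 TPM in A2iL and 12.2 and 11.9 in 2iL-F (-1.69 ± 0.13) with 14.4 and 16.8 in 2iL, and its relative Tfeb was lower, with 31.3 and 29.8 TPM in A2iL and 48.3 and 41.9 in 2iL-F (-0.54 ± 0.10). The cathepsin genes Ctsz and Ctsl were higher, with 288 and 282 TPM in A2iL and 151 and 154 in 2iL-F (0.90 ± 0.06) and 144 and 142 TPM in A2iL and 93.8 and 95.4 in 2iL-F (0.59 ± 0.06).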

How the data were processed

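The authors deposited TPM. Bowtie2, RSEM, DESeq2, R 3.4.2 and mm10 are named per the submitters' processing notes, without versions of the first 3 tools. From these, log2(TPM + 1) was fitted with limma 3.58.1 in R 4.3.3 (a mean per condition, all 10 libraries, eBayes with trend, no covariate), with 5 residual degrees of freedom (median 8.3 after adding the prior). Tested were the 14578 of 20494 lines that reached 1 TPM in 2 libraries or more. P-values were 2-sided, with Benjamini-Hochberg adjustment over all tested lines.

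Named genes were the 15 largest increases and decreases of at least 1, with 5 TPM in the higher condition and libraries apart, leaving out predicted, Rik, small RNA, ribosomal and histone genes and pseudogenes. Each list added up to 6 passing members with the largest change and up to 2 others with the highest TPM, and a fixed set could always be named. Csf1r, Ptprc, Cdh5, Thy1, Dusp1, Dusp5, Dusp14 and Dusp16 fall outside the rule. Some genes that the rule names are not reported here. The members and the 39 lists were chosen with earlier results of these data known. In the part used for names, 9757 symbols are in RefSeq.

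On simulated data for this comparison (5 runs, 200 of 14578 lines changed), 62%, 90%, 98% and 97.2% of changes of 0.5, 1, 2 and 3 were recovered, and 4.51% of calls were false. The simulated noise was independent and had the scatter of these libraries, and far fewer lines were changed than the 45.3% called in the data. The simulation therefore checks the fit only and does not cover spread between separate cultures. Figures used Python 3.11.15, numpy 2.4.6, pandas 2.3.3 and matplotlib 3.10.9. Alternatives were another pseudocount, filters, scalings, fits and single libraries left out.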

Additional observations from a re-analysis of the deposited data

How the results depend on the processing

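The count of called lines stayed between 5039 and 7091 under every alternative that tested the whole table, against 6597. Leaving out 1 library in turn gave 5039 to 5225 called lines. Testing the named part alone gave 4030 called lines, 2030 higher and 2000 lower, with 314 higher and 288 lower by 1 or more. Without the lines that follow the collagen list 1822 were higher, 236 of them by 1 or more, and a pseudocount of 0.1 gave 919 higher by 1 or more, since it widens the differences of low genes. The fibroblast ratio was 0.6321 for the collagen list alone, 0.967 for the contractile list and 1.268 for the identity list. The replicate block gave 6397 called lines, 6294 of them called in the same direction without it. Same-numbered libraries of the 2 media had a deviation correlation of 0.0487 (-0.131 to 0.0746 over the 10 pairs of conditions), so the numbers are not shown to pair the libraries. Of 313 named genes 261 kept direction and call under all alternatives, and only Mt2, which did not pass, reversed, to -0.1191 under quantile normalisation. The cause of these shifts was not tested where the alternative's own construction does not show it. The depth is unknown, and 2 libraries per condition limit the precision.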

Other observations

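Contractile and leukocyte genes moved without a common direction. Csrp1, a LIM domain protein of smooth muscle, had 67.5 and 64.5 TPM in A2iL and 168 and 166 in 2iL-F (-1.33 ± 0.05, adjusted p = 3.6e-07 in limma), with 174 and 160.1 TPM in 2iL. Cnn2, a calponin, was higher in A2iL, with 63.5 and 61.2 TPM in A2iL and 38.5 and 33.9 in 2iL-F (0.77 ± 0.06), as was the actin crosslinker Flna at 142 and 139 TPM in A2iL and 95.6 and 93.0 in 2iL-F (0.57 ± 0.05). Tagln2 had 184 and 193 TPM in A2iL and 196 and 196 in 2iL-F (-0.06 ± 0.05, adjusted p = 0.35). Of 8 tested leukocyte markers 4 were higher and 3 lower. Adgre1, the macrophage marker EMR1, was higher, with 3.78 and 3.55 TPM in A2iL and 0.496 and 0.592 in 2iL-F (1.60 ± 0.10) and listed at 0 in both 2iL libraries. Cd3e, another chain of the T cell receptor complex beside Cd3d and Cd3g, was lower, with 0.278 and 0.246 TPM in A2iL and 4.91 and 4.97 in 2iL-F (-2.23 ± 0.10), with 2.08 and 2.10 TPM in 2iL. Laptm5, a lysosomal protein of blood cells, was lower, with 54.0 and 54.9 TPM in A2iL and 79.7 and 76.9 in 2iL-F (-0.52 ± 0.07), and so was Spi1, the factor PU.1, at 0.759 and 0.881 TPM in A2iL and 4.68 and 2.37 in 2iL-F (-1.26 ± 0.21). Of 6 tested endothelial markers 2 were higher and 2 lower, and the largest changes were Vwf and Tek, the latter with a change of -1.26 ± 0.10.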
